A study of Mus musculus with 6 samples.

Results

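The transcripts of the cytosolic ribosomal proteins were examined in aged mouse muscle after farnesol or its vehicle. Members were chosen by gene symbol: Rpl or Rps followed by a number and at most 1 further letter a, x, y or l, together with Rplp0, Rplp1, Rplp2 and Rpsa, and without pseudogene symbols. This gave 81 of the 23238 symbols listed, made up of 46 genes of the large subunit, 3 of the stalk and 32 of the small subunit. Rack1, which the choice also named, was listed under its older symbol Gnb2l1 and is described with the ribosomal protein genes that the symbol pattern leaves out. The 81 genes lie on 19 chromosomes, 4 of them on X.

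RNA came from the gastrocnemius, a calf muscle in which fast fibres prevail, of wild-type C57/BL6J mice aged 26 months. The farnesol group (n = 3 libraries) received farnesol by mouth at 350 mg/kg for 30 days, and the vehicle group (n = 3 libraries) received saline (0.85% NaCl) with 5% DMSO. Farnesol is an isoprenoid alcohol that carries the farnesyl group, a lipid that cells attach to some proteins. The labels name biological replicates without stating whether these are different mice, so a p-value refers only to the spread among these libraries, which may be technical. Library totals ran from 9895700 to 12707751 counts, and a count of 0 allows up to 3 counts, or 0.251 to 0.309 on the CPM scale, which adjusts counts for library size, for counting error only. The 12 muscle fibre markers all passed the filter on low counts and together held 182000 to 268200 CPM, whereas no lymphocyte marker passed it.

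Each cytosolic ribosome joins a small subunit, which reads the mRNA, to a large subunit, which forms peptide bonds, and each subunit carries its own set of proteins on ribosomal RNA. In mammals the mRNAs of nearly all of these proteins start with a run of pyrimidines, the 5′ terminal oligopyrimidine tract, through which mTORC1 and the RNA-binding protein Larp1 control their translation. In striated muscle the ribosome is also known to carry a restricted paralog, Rpl3l, in place of part of its Rpl3.

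RefSeq promoter entries, which cover 250 bases before to 50 bases after a transcript start in GRCm38.p6, were found for 60 of the 81 genes. They are shown for Rpl35, the gene of smallest p between the groups, for Rplp2, which has near-identical copies, for the abundant Rpl4 and Rps9, and for Rpl3l. Each is written 5′ to 3′ on the strand of its gene, and capitals mark a run of at least 8 pyrimidines (C or T) that lies within 20 bases of the annotated start.
Rpl35 promoter, chr2:39005082-39005381, minus strand: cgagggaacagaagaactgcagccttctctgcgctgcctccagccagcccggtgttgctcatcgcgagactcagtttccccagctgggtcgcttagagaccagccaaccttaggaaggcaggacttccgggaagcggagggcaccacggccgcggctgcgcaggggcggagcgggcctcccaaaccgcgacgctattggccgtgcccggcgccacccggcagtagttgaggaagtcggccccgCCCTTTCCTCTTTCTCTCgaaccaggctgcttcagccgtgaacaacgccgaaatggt
Rplp2 promoter, chr7:141447401-141447700, plus strand: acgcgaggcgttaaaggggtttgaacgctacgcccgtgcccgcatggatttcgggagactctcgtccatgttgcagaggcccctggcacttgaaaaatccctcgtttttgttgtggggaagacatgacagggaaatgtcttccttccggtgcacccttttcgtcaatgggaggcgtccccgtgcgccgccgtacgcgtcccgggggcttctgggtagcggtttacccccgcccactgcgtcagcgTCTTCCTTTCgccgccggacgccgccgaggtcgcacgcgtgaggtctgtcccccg
Rpl4 promoter, chr9:64173137-64173436, plus strand: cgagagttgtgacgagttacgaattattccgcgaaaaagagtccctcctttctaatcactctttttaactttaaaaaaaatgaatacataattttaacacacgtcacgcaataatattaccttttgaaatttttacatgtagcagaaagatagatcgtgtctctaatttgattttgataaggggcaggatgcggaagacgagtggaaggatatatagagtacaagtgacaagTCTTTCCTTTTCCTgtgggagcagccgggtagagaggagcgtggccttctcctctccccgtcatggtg
Rps9 promoter, chr7:3703791-3704090, plus strand: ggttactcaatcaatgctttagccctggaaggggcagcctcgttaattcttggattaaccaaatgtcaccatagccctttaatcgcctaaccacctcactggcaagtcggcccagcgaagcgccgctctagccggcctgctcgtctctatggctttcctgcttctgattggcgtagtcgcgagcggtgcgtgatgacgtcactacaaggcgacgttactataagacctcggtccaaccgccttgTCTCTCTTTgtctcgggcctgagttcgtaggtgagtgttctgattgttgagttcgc
Rpl3l promoter, chr17:24727576-24727875, plus strand: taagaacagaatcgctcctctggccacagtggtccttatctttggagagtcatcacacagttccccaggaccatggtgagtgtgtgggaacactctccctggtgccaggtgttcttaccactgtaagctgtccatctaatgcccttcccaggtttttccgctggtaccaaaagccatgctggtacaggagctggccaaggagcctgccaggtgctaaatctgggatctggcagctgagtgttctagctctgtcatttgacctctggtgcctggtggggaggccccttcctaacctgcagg
Such a run was found in 32 of the 60 promoters (53.3%), against 23.7% of the promoters of all 27025 genes with an entry. The letters CCGGAAG, on either strand, were found in 25 of the 60 (41.7%), against 9.93% of all genes, and the promoters of Rpl35 and Rplp2 hold them. TATAAA on either strand was found in 6 of the 60 (10%), against 15.7% of all genes. The run spans 18 bases in Rpl35, 14 in Rpl4, 10 in Rplp2 and 9 in Rps9, and neither of the 2 entries of Rpl3l holds any of these motifs. These matches describe letters in the window and are no evidence of binding.

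Of the 81 genes, 79 passed the filter on low counts and 2 did not. The 2 were the paralogs Rpl10l and Rpl39l, which are known from male germ cells. Rpl10l had 0 counts in all 6 libraries, and Rpl39l had 2 counts, both in vehicle replicate 3, which is below the limit that a count of 0 allows. Of the other 79 genes, 42 averaged at least 100 CPM, 36 averaged 20 to 100 CPM, and Rps4l averaged 2.12 CPM. Among the 78 genes with at least 20 CPM, the highest and the lowest mean CPM differed 44.6-fold, and 111-fold per kilobase of the principal transcript.

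Per kilobase, the highest levels belonged to Rplp1, a protein of the acidic stalk that recruits translation factors, at 2178 CPM per kb. Rps14, of the platform of the small subunit, followed at 951.3, then Rpl22, an RNA-binding protein of the large subunit, at 880.2, Rplp2 at 826.6, Rps9 at 740.7 and Rpl32 at 665.6 CPM per kb. The lowest tested levels per kilobase were those of Rps4l at 2.25, Rpl12 at 19.6, Rpl11 at 32.9, Rpl3 at 33.9, Rpl7 at 38.8 and Rpl9 at 42.1 CPM per kb. The order describes the deposited counts and not the makeup of the ribosome. The library kit is designed to read near the 3′ end, where counts need not grow with transcript length. Values per kilobase, including the range above, therefore depend on a division that may not suit these counts. Rps20, for example, ranked 5 by mean CPM but 45 per kilobase, with a principal length of 3706 bases. By mean CPM the highest were Rplp1 at 1087, Rpl4 at 817, Rps14 at 567.9, Rps9 at 556.3 and Rps20 at 500.5. The 10 genes with most CPM held 39.4% of all ribosomal protein CPM.

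**Figure D1:**
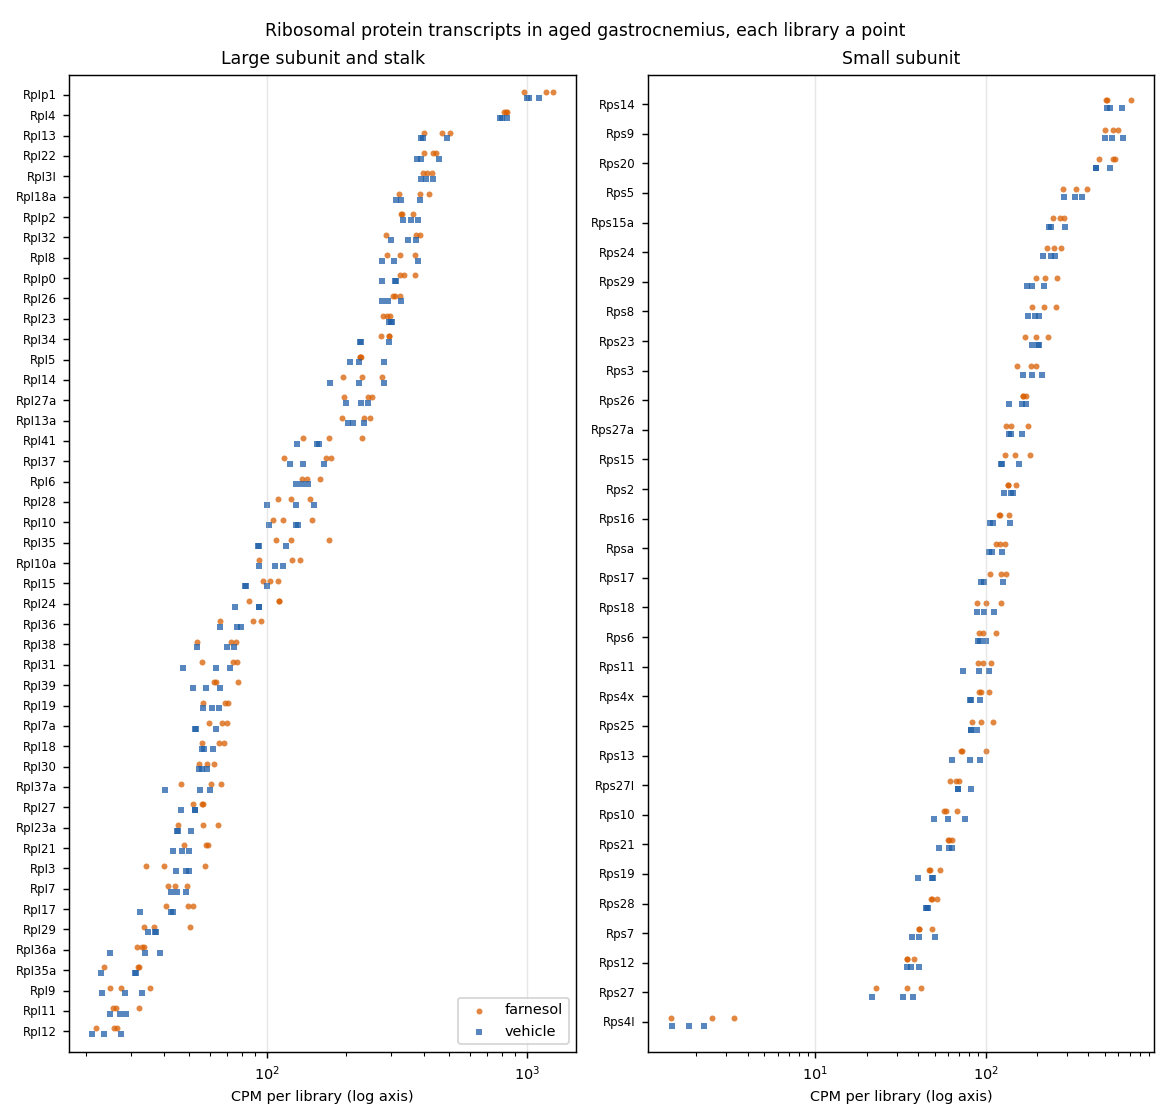
CPM (log axis) of the 79 tested ribosomal protein genes in each library, orange circles for the 3 farnesol libraries and blue squares for the 3 vehicle libraries, with genes ordered by mean. The libraries of both groups lie close together for most genes, and the genes span from about 2.12 CPM for Rps4l to 1087 CPM for Rplp1.

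Taken as a share of all counts, the 81 genes held 1.70%, 1.40% and 1.27% of the farnesol libraries and 1.40%, 1.20% and 1.44% of the vehicle libraries. The shares averaged 1.46 ± 0.22% with farnesol and 1.35 ± 0.13% with vehicle (SD, n = 3 each), and the groups overlapped. The 45S ribosomal RNA precursor row, Rn45s, took 4.97%, 14.8% and 14.2% of the farnesol libraries and 12.4%, 15.4% and 9.92% of the vehicle libraries. With Rn45s left out of the totals, the ribosomal protein shares were 1.79%, 1.64% and 1.48% with farnesol and 1.60%, 1.42% and 1.60% with vehicle. The summed counts of the large subunit with the stalk were 1.68, 1.75 and 1.71 times those of the small subunit in farnesol libraries, against 1.67, 1.72 and 1.72 times in vehicle libraries. The balance between the subunits therefore differed by 0.01 on the log2 scale between the groups, with SDs of 0.03 within each.

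Across all 11674 genes tested with edgeR's quasi-likelihood test, none (0%) differed between farnesol and vehicle at a Benjamini-Hochberg adjusted p below 0.05, and the smallest adjusted p was 0.561. Neither DESeq2 nor limma-voom called a gene. At an unadjusted p below 0.05, 351 of 11674 genes (3.01%) were found with edgeR, 416 of 16624 with DESeq2 and 361 of 11674 with limma-voom. No ribosomal protein gene was called, and 1 of the 79, Rpl35, had an unadjusted p below 0.05, with more in farnesol (background 1.75% in that direction), against 0 with less (background 1.26%). The 3 farnesol libraries all lay above the 3 vehicle libraries for 2 of the 79 genes, Rplp0 and Rps28 (background 4.75%), and all below them for 0 (background 4.07%). Neither share of the 79 lies above its background.

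The small differences of the ribosomal protein genes mostly pointed the same way. The log2 fold change of farnesol over vehicle was above 0 for 68 of the 79 genes and below 0 for 11, against 49.1% above 0 over all tested genes. The median was 0.09, with a middle 50% from 0.03 to 0.16, against -0.01 over all tested genes. With the smooth trend of each library against transcript length removed, 37 of the 79 were above 0 and the median was -0.01. Of the 44 tested large-subunit genes 39 were above 0 (median 0.08), of the 32 small-subunit genes 27 (median 0.09), and of the 3 stalk genes 2 (median 0.12). No gene apart from Rpl35 had a 95% interval that left out a fold of 1, and the intervals of the 78 genes with at least 20 CPM reached no lower than a 0.70-fold and no higher than a 1.72-fold level in farnesol. All of these genes were measured in the same libraries, so their number adds no replicates to the 3 per group.

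**Figure D2:**
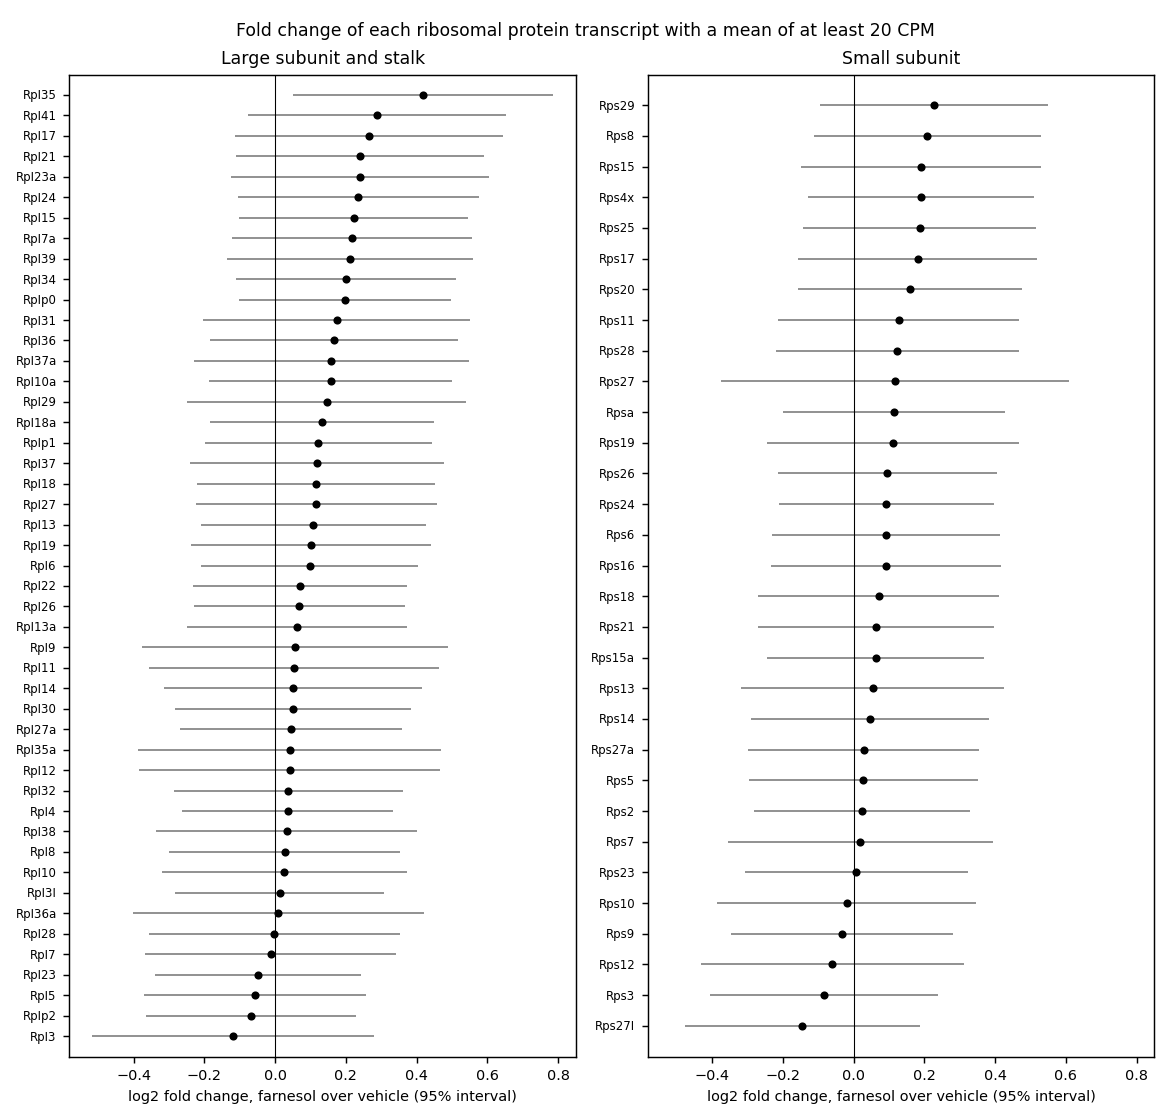
Log2 fold change of farnesol over vehicle with its 95% interval for each of the 78 ribosomal protein genes with at least 20 CPM, in the edgeR fit. Points lie mostly right of 0, which they do not with the length trend removed (37 of the 79 tested genes), and Rpl35 alone has an interval that does not include 0.

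The shift was uneven among the libraries within each group. The median ribosomal protein gene lay 0.14, 0.10 and -0.09 from its own 6-library mean log2 CPM in the farnesol libraries, against 0.08, -0.04 and -0.16 in the vehicle libraries. Farnesol replicate 3 lay below vehicle replicates 1 and 2, so the groups overlapped. Farnesol replicate 1 was the highest of the 6 libraries for 37 genes and farnesol replicate 3 the lowest for 15, while vehicle replicate 1 was the highest for 16 and vehicle replicate 3 the lowest for 40.

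**Figure D3:**
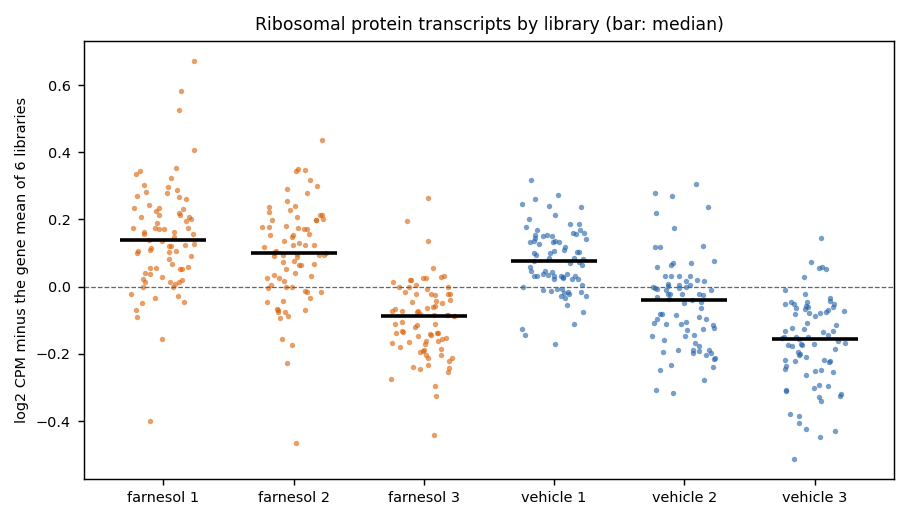
Log2 CPM of each of the 79 tested ribosomal protein genes minus its mean over the 6 libraries, 1 point per gene, with a bar at the median of each library. Medians run from 0.14 in farnesol replicate 1 to -0.16 in vehicle replicate 3, and farnesol replicate 3 at -0.09 lies below vehicle replicate 1 at 0.08.

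The size of the shift rested on which libraries were used. Without vehicle replicate 3 the median was 0.03 with 52 of 79 genes above 0, and without farnesol replicate 1 it was 0.05 with 57 of 79. Without farnesol replicate 2 it was 0.06 with 56 of 79. It was larger without vehicle replicate 1, at 0.16 with 74 of 79, and without farnesol replicate 3, at 0.15 with 73 of 79. Scaling also bears on the libraries: the TMM factors, which set the common scale, were 1.11, 0.94 and 0.98 for farnesol and 0.94, 0.91 and 1.14 for vehicle. Farnesol replicate 1 and vehicle replicate 3 thus had the highest factors. With library totals alone the median was 0.12 with 71 of 79 genes above 0. Vehicle replicate 3 had the highest share of ribosomal protein counts of its group, yet the lowest summed CPM after scaling (15310, 14840 and 12940 CPM in the farnesol libraries, against 14790, 13300 and 12640 CPM in the vehicle libraries).

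Transcript length moved with the shift. Ribosomal protein transcripts are short, with a median principal length of 729 bases against 2903 over the tested genes. Over 11592 genes, Spearman's rho between a gene's deviation in a library and its transcript length was -0.25, 0.02 and 0.05 in the farnesol libraries, against 0.02, 0.10 and 0.07 in the vehicle libraries. Farnesol replicate 1 thus stood apart, with short transcripts high. It was also the library with least Rn45s and with the smallest share of the very long titin transcript, Ttn, at 5.77%, against 8.24% and 8.44% in the other farnesol libraries and 7.15% to 8.70% in the vehicle libraries. The correlations are descriptions across genes, which share each library's depth and preparation. When the smooth trend of each library with the length of the longest transcript was removed, the large-subunit, small-subunit and stalk medians were -0.01, -0.02 and -0.03. With principal lengths in its place, 35 of the 79 genes were above 0 with a median of -0.01. Among the 1533 other tested genes with a principal length of 479 to 1352 bases, the 10th to 90th percentile of the ribosomal protein genes, 62.8% were above 0 with a median of 0.08. This class was chosen after values had been seen.

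**Figure D4:**
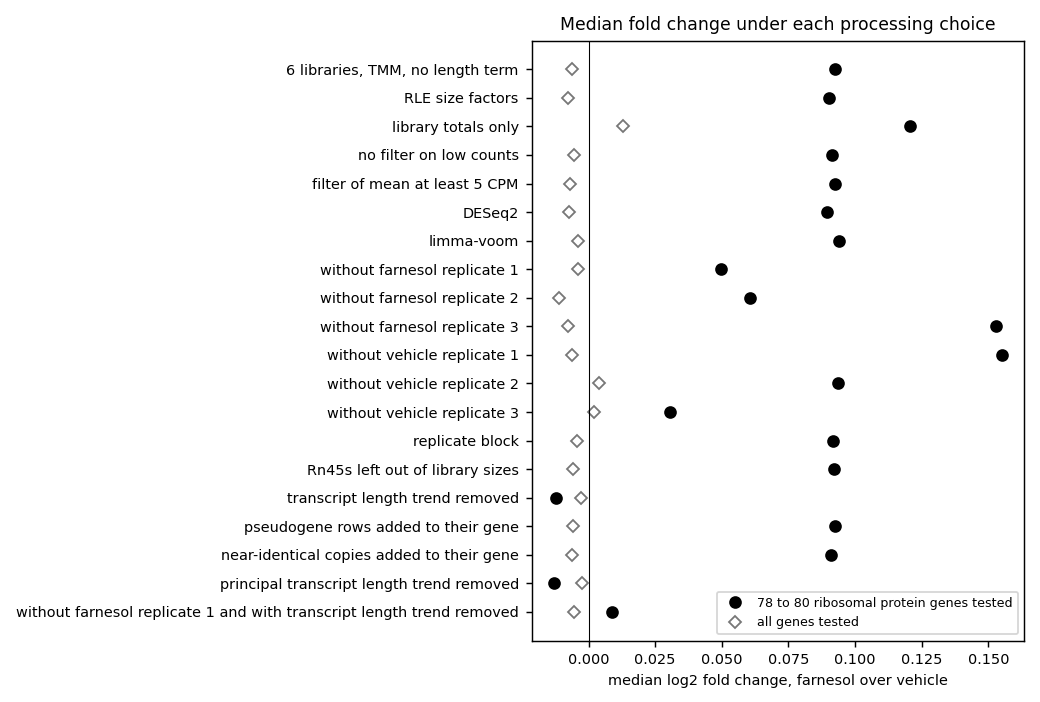
Median log2 fold change of farnesol over vehicle under each processing choice, filled circles for the 78 to 80 ribosomal protein genes tested and open diamonds for all tested genes. The circles lie between 0.03 and 0.16 except in the 3 fits with a length trend removed, where they lie between -0.01 and 0.01.

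The stalk and its base hold Rplp0, Rplp1, Rplp2 and Rpl12, which bring the translation GTPases to the large subunit. Rplp0, the core to which the acidic proteins bind, had 370.7, 335.0 and 323.2 CPM in farnesol libraries, against 312.5, 275.2 and 309.8 CPM in vehicle libraries. The groups did not overlap, and the log2 fold change was 0.20 (SE 0.14; edgeR unadjusted p = 0.185). Its partner Rplp1 had 1254, 1179 and 966.7 CPM in farnesol libraries, against 1111, 994.5 and 1018 CPM in vehicle libraries, with the lowest value in farnesol replicate 3. The other acidic protein, Rplp2, had 362.0, 329.7 and 327.5 CPM in farnesol libraries, against 380.7, 355.3 and 332.9 CPM in vehicle libraries, with a log2 fold change of -0.07 (SE 0.14). The 3 stalk proteins thus differed in sign. Rplp1 and Rplp2 lay within their errors, and no stalk gene had an interval that left out a fold of 1.

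The 8 genes listed for the peptide exit tunnel, through which the new chain leaves the large subunit, all had log2 fold changes above 0, with a median of 0.19, which was 0.06 with the principal length trend removed. Rpl35, at the mouth of the tunnel, had 172.5, 123.4 and 108.4 CPM in farnesol libraries, against 117.6, 92.37 and 92.85 CPM in vehicle libraries. Farnesol replicate 1 was far above the rest and farnesol replicate 3 below vehicle replicate 1. The log2 fold change was 0.42 (SE 0.18; 1.03-fold to 1.72-fold; edgeR unadjusted p = 0.0278, adjusted p = 1). The Rpl35 gene overlaps Wdr38 and Arpc5l, both on the opposite strand. Its transcript matches that of Wdr38 over 542 bases, and no match of at least 150 bases was found for Arpc5l. Wdr38 had 427, 451 and 194 counts in farnesol libraries, against 296, 258 and 240 counts in vehicle libraries. Arpc5l had 1790, 1584 and 1386 counts in farnesol libraries, against 1706, 1461 and 1769 counts in vehicle libraries. The handling of strand is not given, so reads from the stretches that these genes share cannot be told apart.

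Rpl17, which lines the narrow part of the tunnel, had 51.67, 49.57 and 40.81 CPM in farnesol libraries, against 42.51, 43.46 and 32.33 CPM in vehicle libraries (log2 fold change 0.27, SE 0.18). Its groups overlapped through farnesol replicate 3. The other 6 genes of the tunnel and its rim, Rpl23a, Rpl39, Rpl31, Rpl19, Rpl26 and Rpl4, had log2 fold changes between 0.04 and 0.24. Rpl4, with a loop in the tunnel wall, had 837.6, 830.9 and 812.4 CPM in farnesol libraries, against 834.7, 798.8 and 787.7 CPM in vehicle libraries, a log2 fold change of 0.04 (SE 0.14).

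Among the remaining large-subunit genes, Rpl41, which encodes a very short basic peptide at the subunit interface, had 231.9, 172.3 and 136.9 CPM in farnesol libraries, against 157.9, 130.1 and 155.2 CPM in vehicle libraries. The difference came with a wide spread in the farnesol libraries, whose lowest value lay among the vehicle ones (log2 fold change 0.29, SE 0.18). Rpl5 and Rpl11 carry the 5S ribosomal RNA into the large subunit and are known to bind Mdm2 when free of ribosomes. Rpl5 had 227.3, 229.1 and 227.3 CPM in farnesol libraries, against 279.8, 224.3 and 207.1 CPM in vehicle libraries, and Rpl11 had 32.13, 25.58 and 26.07 CPM in farnesol libraries, against 27.19, 28.70 and 24.88 CPM in vehicle libraries. Both pairs of groups overlapped, with log2 fold changes of -0.06 (SE 0.15) and 0.05 (SE 0.20).

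At the low end, Rpl12 had 25.70, 26.41 and 21.95 CPM in farnesol libraries, against 27.29, 21.22 and 23.53 CPM in vehicle libraries. Rpl9 had 27.38, 35.27 and 24.73 CPM in farnesol libraries, against 28.24, 32.95 and 23.02 CPM in vehicle libraries. Rpl35a had 32.13, 31.76 and 23.50 CPM in farnesol libraries, against 31.21, 30.92 and 22.94 CPM in vehicle libraries. For these 3 genes the libraries of the same group differed more than the group means did.

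In the small subunit, the genes listed for the decoding site and mRNA channel were divided, 4 of 7 above 0 with a median of 0.01, and of -0.09 with the length trend removed. Rps3, which lines the mRNA entry, had 183.4, 195.7 and 153.2 CPM in farnesol libraries, against 185.8, 214.0 and 164.6 CPM in vehicle libraries (log2 fold change -0.08, SE 0.16). Rps9, next to it, had 554.1, 594.5 and 501.1 CPM in farnesol libraries, against 637.6, 551.5 and 498.8 CPM in vehicle libraries (log2 fold change -0.03, SE 0.15). Both sets of values overlapped. Rps15, whose tail reaches the decoding site, had the smallest p of these 7 with a log2 fold change of 0.19 (SE 0.16).

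Rps29, a small zinc-binding protein of the subunit's head, had the smallest p of the small-subunit genes, with 260.5, 222.3 and 196.4 CPM in farnesol libraries, against 218.8, 186.3 and 174.9 CPM in vehicle libraries. The groups overlapped, and the log2 fold change was 0.23 (SE 0.16; edgeR unadjusted p = 0.156, adjusted p = 1). Rps28, near the mRNA exit, had 51.49, 47.98 and 48.13 CPM in farnesol libraries, against 45.38, 44.47 and 45.62 CPM in vehicle libraries, without overlap and with a log2 fold change of 0.12 (SE 0.17). Rps14 had 714.0, 505.4 and 511.5 CPM in farnesol libraries, against 626.6, 514.6 and 535.3 CPM in vehicle libraries, and Rps20, of the head, had 554.2, 570.5 and 459.5 CPM in farnesol libraries, against 537.0, 440.3 and 441.5 CPM in vehicle libraries. Replicate 1 of each group was high for Rps14, and for Rps20 farnesol replicate 3 lay within the vehicle range. Rps6, the substrate of the S6 kinases, had a log2 fold change of 0.09 (SE 0.16).

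The coefficient of variation of the ribosomal protein genes over the 3 libraries had a median of 12% with farnesol and 11.1% with vehicle. The biological coefficient of variation fitted by edgeR had a median of 15.2% over the 78 genes with at least 20 CPM, against 16.7% over the 4244 tested genes of that level. Standard errors of the log2 fold changes of these 78 ran from 0.14 to 0.24, so a difference of the size of the median shift, 0.09, lies under the error of any 1 gene.

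Rpl3l and Rpl3 encode alternative versions of the same protein near the peptidyl transferase centre. Rpl3l (chr17:24727826-24736143, plus strand, GRCm38.p6) had 429.9, 409.9 and 398.3 CPM in farnesol libraries, against 405.8, 433.2 and 388.3 CPM in vehicle libraries. Rpl3 (chr15:80077781-80083406, GRCm38.p6) had 34.24, 57.42 and 40.09 CPM in farnesol libraries, against 48.54, 44.47 and 50.02 CPM in vehicle libraries. Rpl3l was thus the higher of the pair in every library, and Rpl3 was least even among the farnesol libraries.

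Per kilobase of principal transcript, Rpl3l stood at 12.3, 7.01 and 9.76 times the level of Rpl3 in farnesol libraries, against 8.21, 9.57 and 7.63 times in vehicle libraries. Rpl3l made up 92.6% (exact Clopper-Pearson 95% interval 91.9% to 93.3%), 87.7% (86.8% to 88.6%) and 90.9% (89.9% to 91.7%) of the counts of the pair in farnesol libraries, against 89.3% (88.4% to 90.2%), 90.7% (89.8% to 91.5%) and 88.6% (87.7% to 89.4%) in vehicle libraries. The intervals cover counting error only, and the farnesol libraries held both the highest and the lowest share. The log2 ratio was 3.27 ± 0.41 with farnesol and 3.10 ± 0.17 with vehicle (SD, n = 3 each), a difference of 0.16 that did not pass the exact two-sided permutation test (p = 0.6, where 0.1 is the smallest p that 3 against 3 libraries allow). Without farnesol replicate 1 the difference was -0.03. The log2 fold change was 0.01 (SE 0.14) for Rpl3l and -0.12 (SE 0.19) for Rpl3, which overlaps Syngr1 on the opposite strand.

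**Figure D5:**
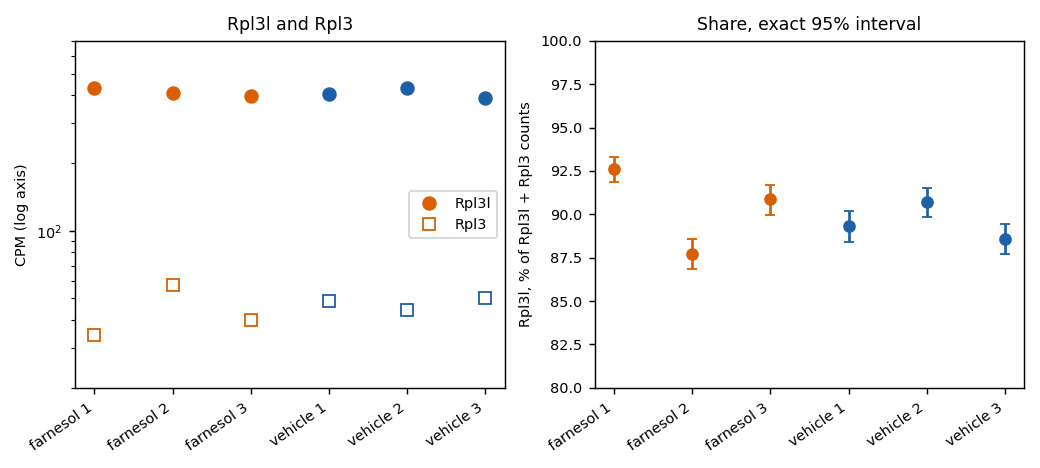
Left, CPM (log axis) of Rpl3l (filled circles) and Rpl3 (open squares) in each library. Right, Rpl3l as a percentage of the counts of both genes with the exact 95% interval, on an axis that starts at 80%. Shares run from 87.7% in farnesol replicate 2 to 92.6% in farnesol replicate 1, and the vehicle libraries lie between them.

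The other paralogs in the set also overlapped between the groups. Rps27l, a paralog of Rps27, had 67.07, 69.71 and 61.73 CPM in farnesol libraries, against 82.34, 68.22 and 68.98 CPM in vehicle libraries (log2 fold change -0.14, SE 0.16). Rps27 itself had 34.59, 41.79 and 22.67 CPM in farnesol libraries, against 32.55, 37.49 and 21.58 CPM in vehicle libraries, with the third library low in each group. Rps4l had 3.35, 1.42 and 2.47 CPM in farnesol libraries, against 1.82, 2.22 and 1.44 CPM in vehicle libraries, and its log2 fold change of 0.40 had an SE of 0.59.

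Near-identical copies limit some of these values. A transcript of another listed gene that lies elsewhere in the genome, leaving out genes that overlap the ribosomal protein gene itself, matched at least 95% over at least 150 bases for 17 of the 81 genes, and for 15 of them such a copy averaged at least 1 count. For 6 genes the copies together held more counts than the gene. Wdr89, which matches Rplp2 at 99.3% over 447 bases, averaged 7455 counts against 3776 for Rplp2. The pseudogene row Rplp2-ps1 had 8120, 7957 and 6199 counts in farnesol libraries, against 7952, 6547 and 7917 in vehicle libraries. Wdr89 itself had 8127, 7958 and 6200 counts in farnesol libraries, against 7959, 6548 and 7938 in vehicle libraries. The rows thus nearly coincide in every library, and the Wdr89 row cannot be read as a level of Wdr89. No transcript was found for Rplp2-ps1, so the search for copies left it out. Rpl37rt averaged 4398 counts against 1610 for Rpl37, and its ratio to Rpl37 was 2.80, 2.37 and 3.12 in farnesol libraries, against 2.69, 2.60 and 3.03 in vehicle libraries. Gm5148 matches Rps23 at 100% over 427 bases and averaged 2158 counts against 2155 for Rps23, and Rps27rt averaged 605 counts against 346.5 for Rps27. How reads that match several places were assigned is not given, so the levels of such genes are uncertain. The search covered listed symbols only, so copies without a row were not examined for any of the 81 genes. With the copies added to their genes, 67 of the 79 genes were above 0 and the median was 0.09. A further limit is that 14 of the 81 genes overlap a listed gene on the opposite strand that averaged at least 20 counts.

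A list of 8 tested genes that the symbol pattern leaves out had log2 fold changes above 0 in 7 cases, with a median of 0.07, and of -0.02 with the length trend removed. The 1 below 0 was Rps19bp1, at -0.07 (SE 0.30), which encodes a binding protein of Rps19 and no ribosomal protein. Gnb2l1, which is not on that list, is the older symbol of the scaffold protein Rack1 on the head of the small subunit. It had 329.8, 323.0 and 280.3 CPM in farnesol libraries, against 349.8, 326.6 and 289.6 CPM in vehicle libraries (log2 fold change -0.05, SE 0.15). Rps3a1, Fau, Rpl36al, Rpl22l1, Rpl7l1 and Rps27rt had log2 fold changes between 0.03 and 0.13.

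Other genes of translation were read from lists for comparison, and none of their genes was called. Among 20 other mRNAs known to start with a pyrimidine tract, 9 were above 0 with a median of -0.02. They included Tpt1, at 1139 ± 83 CPM with farnesol and 1027 ± 75 CPM with vehicle, and the elongation factor Eef2, at 1305 ± 149 CPM with farnesol and 1471 ± 159 CPM with vehicle (SD, n = 3 each). Among 36 initiation factors 14 were above 0 (median -0.03), with Eif4b at -0.28 (SE 0.17) and the helicase Eif4a1 at -0.30 (SE 0.20) on the log2 scale. Among 11 elongation and termination factors 3 were above 0 (median -0.03), including the muscle factor Eef1a2 at 0.05 (SE 0.16), while Eef1a1 was at -0.01 (SE 0.17) and Gspt1 at -0.17 (SE 0.16). None of these lists held a gene with an unadjusted p below 0.05. The sign of the median turned under at least 1 alternative for the pyrimidine-tract and elongation lists, and under none for the initiation factors.

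Genes that build ribosomes leaned the other way, unevenly among the libraries. Of 56 genes of ribosome biogenesis and RNA polymerase I, 21 were above 0 (37.5%, against 49.1% of all tested genes) and 35 below. The median log2 fold change was -0.08, and -0.13 to -0.01 with a library left out. Median deviations were -0.09, 0.00 and 0.04 in the farnesol libraries, against 0.03, -0.10 and 0.22 in the vehicle libraries, so the groups overlapped. Of the 56, 3 had an unadjusted p below 0.05 with less in farnesol (background 1.26%). Riok2, a kinase of late small-subunit assembly, averaged 9.14 ± 0.20 CPM with farnesol and 14.4 ± 2.8 CPM with vehicle (SD, n = 3 each; log2 fold change -0.66, SE 0.26). Polr1c, a subunit of RNA polymerases I and III, averaged 10.1 ± 1.9 CPM with farnesol and 15.4 ± 1.6 CPM with vehicle (log2 fold change -0.61, SE 0.26). For both genes every farnesol library lay below every vehicle library, and the adjusted p was 1 with edgeR. Groups did not overlap for 5 of the 56 with less in farnesol (background 4.07%) and for 2 with more (background 4.75%).

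Of 30 genes of the mTORC1 pathway and its control of translation, 14 were above 0 with a median of -0.01, whose sign turned under 3 alternatives. Tsc1, an inhibitor of mTORC1, averaged 46.7 ± 5.7 CPM with farnesol and 61.7 ± 4.3 CPM with vehicle (log2 fold change -0.40, SE 0.17), and Sesn1, another inhibitor of the pathway, stood at a log2 fold change of -0.41 (SE 0.21). The groups of both did not overlap. Such separation was found for 2 of the 30 with less in farnesol (background 4.07%) and for 0 with more (background 4.75%). Larp1 at -0.03 (SE 0.16), Mtor at -0.05 (SE 0.20), Rps6kb1 at -0.01 (SE 0.17), Eif4ebp1 at -0.44 (SE 0.40) and Myc at -1.31 (SE 0.89) had log2 fold changes within about 1.5 times their errors.

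Markers of other cells moved between the libraries as well. All 9 tested adipocyte markers were above 0, with a median log2 fold change of 0.46 and summed levels of 911.6 to 999.1 CPM with farnesol and 677.5 to 931.7 CPM with vehicle. For 4 of the 9, Cidec, Lep, Retn and Plin1, the unadjusted edgeR p was below 0.05 with more in farnesol (background 1.75%). The groups of these 4 did not overlap (background 4.75%), and 0 of the 9 separated with less in farnesol. Of 7 erythroid markers 5 were above 0 (median 0.45), with sums of 5465 to 9713 CPM with farnesol and 3496 to 5677 CPM with vehicle. For 4 of the 7 the unadjusted edgeR p was below 0.05 with more in farnesol, and for 0 with less. The groups of 1 of the 7, Hbb-bs, did not overlap. Of 9 macrophage markers 1 was above 0 (median -0.20), with sums of 122.4 to 159.5 CPM with farnesol and 97.1 to 237.2 CPM with vehicle, and without vehicle replicate 3 the median was 0.33. For 1 of the 9, Adgre1, the unadjusted edgeR p was below 0.05 with less in farnesol (background 1.26%), and its groups did not overlap (background 4.07%). Muscle fibre markers were above 0 in 9 of 12 cases (median 0.08), fibroblast markers in 6 of 8 (0.11), Schwann cell markers in 5 of 6 (0.10), endothelial markers in 5 of 9 (0.00), smooth muscle markers in 3 of 6 (-0.04) and satellite cell markers in 0 of 5 (-0.15). The sign of the median turned under at least 1 alternative for the muscle fibre, fibroblast, endothelial, smooth muscle and satellite cell lists. Lymphocyte markers averaged at most 3.83 counts. In a whole muscle, fewer cells of a type and less RNA per cell cannot be told apart, and the part of these cells in the ribosomal protein values was not tested.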

How the data were processed

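Libraries were made from 500 ng of total RNA with a Lexogen QuantSeq kit, which is designed to read near the 3′ end of polyadenylated transcripts, per the labels' protocols. The deposited tables hold raw read counts per gene symbol, identified as counts from whole values with unequal totals. Bowtie2, bedtools and mm10 are named in the submitters' processing notes; versions, annotation, strand handling and treatment of repeated matches are not stated by any source at hand. Each table had 23282 rows and 23238 symbols; 35 repeated symbols were summed, none of them a ribosomal protein gene of the set.

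All genes were fitted together in edgeR 4.0.16 (R 4.3.3): filterByExpr by group, TMM scaling, glmQLFit with robust = TRUE, glmQLFTest and Benjamini-Hochberg adjustment over the 11674 tested genes at 0.05. CPM used the scaled library totals. DESeq2 1.42.0, limma-voom 3.58.1, RLE factors, library totals alone, filters on low counts, each library left out, a replicate block, Rn45s left out and copies added to their genes were alternatives. In a further alternative a lowess curve of each library's deviation against transcript length (span 0.5) was removed. The fit was tested on simulated data. These held far larger changes than the median shift of the ribosomal protein genes and no length trend, so they do not bear on that shift. Positions and promoters are RefSeq's (GRCm38.p6), and lengths are from GENCODE vM21, found for 99.3% of tested genes.

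Genes named are Rpl3l, Rpl3, the 4 ribosomal protein genes of smallest p in each direction (Rpl3 is among those below 0), the 5 highest and 5 lowest in CPM, paralogs, the genes outside the pattern, the 2 of smallest p in each list and a few translation genes; others were chosen after their values were seen. A few genes under these criteria are not reported here. The ribosomal protein genes and all lists were chosen with earlier results of these data known.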

Additional observations from a re-analysis of the deposited data

How the results depend on the processing

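No ribosomal protein gene was called under any of the 19 alternatives. Over all genes, 0 calls became 13 without the filter on low counts and 0 to 3 with a library left out, the 3 without vehicle replicate 2. The count of ribosomal protein genes above 0, 68 of 79, was 37 with the length trend removed, 35 with principal lengths and 44 of 79 without farnesol replicate 1 and with the trend removed, with medians of -0.01, -0.01 and 0.01; the cause of these changes was not tested. With a library left out it was 52 to 74 and the median 0.03 to 0.16. RLE factors, library totals, filters, DESeq2, limma-voom, Rn45s left out and added pseudogene rows or copies gave 67 to 71 above 0 and medians of 0.09 to 0.12. The principal lengths, the added copies and the last combination were chosen after seeing the data. The difference in the share of counts, 0.11 percentage points, was -0.02 to 0.20 with a library left out, and the log2 difference of the Rpl3l to Rpl3 ratio, 0.16, was -0.03 to 0.38, the reversal being without farnesol replicate 1 (-0.0275). The log2 subunit balance, 0.01, was -0.01 to 0.02.

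Replicate numbers, which follow the sample titles, gave no sign of pairing. Correlations of same-numbered deviations were 0.04, 0.06 and -0.02, against -0.07 to 0.04 for unlike numbers. With so few libraries these values cannot show that no pairing exists. A fit with the numbers as a replicate block gave 0 calls, with 68 of 79 ribosomal protein genes above 0 and a median of 0.09. With 3 libraries a group and errors of at least 0.14 on the log2 scale, shifts of the size of the median are not detectable in a single gene.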

Other observations

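The S6 kinases, whose symbols begin like those of the small-subunit proteins, are kinases of Rps6 and other proteins and not ribosomal proteins. Rps6ka3, a kinase of this family that acts downstream of ERK, had 29.93, 27.50 and 28.13 CPM in farnesol libraries, against 35.52, 35.57 and 33.43 CPM in vehicle libraries. The groups did not overlap (background 4.07% in this direction), and the log2 fold change was -0.29 (SE 0.18; edgeR unadjusted p = 0.13). Rps6ka2 had 60.30, 69.54 and 60.80 CPM in farnesol libraries, against 59.55, 69.13 and 49.43 CPM in vehicle libraries, with overlap.

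The pseudogene row Rpl34-ps1, nearly identical to Rpl34 over its matched stretch, held 0.90, 0.94 and 0.95 times the counts of Rpl34 in farnesol libraries, against 0.94, 0.94 and 0.92 times in vehicle libraries. The paralog Rps27l held 1.94, 1.67 and 2.72 times the counts of Rps27 in farnesol libraries, against 2.53, 1.82 and 3.20 times in vehicle libraries, so this ratio was high in the third library of each group.

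Of the 81 genes, 23 overlap listed small nucleolar RNA genes, with 32 such rows in all. Among these rows, Snora78 lies on the strand opposite to Rps2.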
